A study of Mus musculus with 6 samples.

Results

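A set of 7 genes of the serotonin system was followed through the transcriptome of the embryonic mouse midbrain. Slc6a4, Tph2 and Fev are used here as markers of serotonergic neurons. Slc22a3 encodes a transporter that can take up serotonin but is made by several brain cell types, and Htr1a, Htr1b and Htr2c encode serotonin receptors. The genes of the set were chosen by name, with earlier results of these data known, and are 7 of the 26852 genes measured. Midbrains were dissected at E14.5 from embryos on a C57Bl/6 background (C57BL/6J in the study's methods). The Lmx1b cKO embryos were Lmx1b fl/fl;Pitx3-Cre and the control embryos were Lmx1b wt/wt;Pitx3-Cre, so both groups carry Cre in place of a Pitx3 allele. Recombination by Pitx3-Cre takes place in Pitx3 positive meso-diencephalic dopaminergic (mdDA) neurons, and serotonergic neurons are not known to express Pitx3. RNA of 3 libraries per genotype was sequenced, each library from 2 pooled embryos.

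Serotonergic neurons are born in the hindbrain, and their most rostral groups, the dorsal and median raphe, lie just behind the isthmus, the border between midbrain and hindbrain. Tph2 makes serotonin from tryptophan together with Ddc, Slc18a2 packs it into vesicles, Slc6a4 takes it back up after release, and Maoa and Maob break it down. Fev, an ETS transcription factor also called Pet-1, and Lmx1b itself are needed for the identity of these neurons, with Gata2 and Gata3 acting before them. The receptors are less particular to these cells. Htr1a and Htr1b serve as autoreceptors but are also made by many other neurons, and Htr2c is made by other neurons and by the choroid plexus.

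The deposited table gives the mean normalized count of each group, in which the reads of each library were divided by a size factor, and does not list libraries one by one. Since reads are whole numbers, each mean was split into the only 3 whole counts that give it, in both groups, for 26248 genes (97.8%), among them all 7 members. A recovered library is known by its genotype alone, so the libraries of each group are named replicate a, replicate b and replicate c, from the largest to the smallest size factor, and 3 values in a row are given in that order. Recovered reads per library ran from 19711032 to 23954501. Lmx1b had 1257 to 1455 normalized counts in the cKO libraries and 1352 to 1474 in the control libraries. These ranges overlapped, so reads of Lmx1b cannot tell whether the genotype labels are right. The gene is also made outside the Pitx3 domain, and the part of those cells in the overlap was not tested. Directions are those of libraries with a cKO label against libraries with a control label. In cKO replicate c, genes of bone and mesenchyme stood apart, with 13337 normalized counts over a list of 6 genes, against 1913 and 391 in cKO replicates a and b and 402 to 482 in the control libraries. Replicate a of the cKO was thus also above every control library. Results for Slc6a4, Tph2, Fev and Slc22a3 are therefore also given without each of these libraries, and the part of this tissue in them was not tested.

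Over the 16573 genes that averaged 10 or more normalized counts, all 7 members included, limma with voom weights gave 466 genes (2.81%) an unadjusted p-value under 0.05. Of all genes tested, 269 (1.62%) had one and were lower in the cKO, and 197 (1.19%) had one and were higher. After Benjamini-Hochberg adjustment over all genes tested, 0 genes (0.00%) had an adjusted p-value under 0.05, and none of the members did. Of the other fits, a replicate block for some possible pairings of the libraries gave 1 to 4 genes an adjusted p-value under 0.05, and the fit without control replicate a gave 4, with no member among them. With limma-trend in place of voom weights the counts were 475 and 0. All differences of the members described below therefore failed the correction for many genes. Of the members, 4 of 7 had an unadjusted p-value under 0.05, all of them lower in the cKO. These were Tph2 and Fev, and Slc6a4 and Slc22a3, which the study picked by p-value on these libraries. None of the 3 receptors had an unadjusted p-value under 0.05. With a block for each possible pairing 3 or 4 members had one, and Fev had one in 1 of the 6 blocks. The median log2 fold change was -0.86 over the 7 members and -0.0002 over all genes tested.

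The sequence before the start of transcription is shown for Slc6a4, Tph2, Fev and Slc22a3, since these are the members with an unadjusted p-value under 0.05. Sequences are the 250 bases upstream of the RefSeq start on GRCm38.p6, 5′ to 3′ on the strand of the gene, at chr11:76998347-76998596 (plus strand) for Slc6a4, chr10:115185023-115185272 (minus strand) for Tph2, chr1:74885409-74885658 (minus strand) for Fev and chr17:12507705-12507954 (minus strand) for Slc22a3. Capitals mark exact matches on either strand to TAATTA, the core bound by LIM homeodomain factors such as Lmx1b, CGGAAG, the core bound by ETS factors such as Fev, and AGATAA, the GATA motif.
Slc6a4: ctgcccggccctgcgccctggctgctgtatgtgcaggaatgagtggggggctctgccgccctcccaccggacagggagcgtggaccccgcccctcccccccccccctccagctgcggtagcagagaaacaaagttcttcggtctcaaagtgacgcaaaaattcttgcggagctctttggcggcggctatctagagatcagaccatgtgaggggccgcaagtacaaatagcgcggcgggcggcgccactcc
Tph2: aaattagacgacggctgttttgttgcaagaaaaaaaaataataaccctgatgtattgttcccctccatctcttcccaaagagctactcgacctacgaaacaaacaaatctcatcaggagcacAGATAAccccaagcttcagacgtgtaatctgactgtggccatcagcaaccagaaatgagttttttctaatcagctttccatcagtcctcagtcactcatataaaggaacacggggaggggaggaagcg
Fev: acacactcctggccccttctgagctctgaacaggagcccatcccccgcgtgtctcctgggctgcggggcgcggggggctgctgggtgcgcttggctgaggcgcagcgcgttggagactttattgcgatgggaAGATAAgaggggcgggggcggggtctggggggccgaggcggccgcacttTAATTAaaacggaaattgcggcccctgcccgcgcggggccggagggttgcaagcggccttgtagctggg
Slc22a3: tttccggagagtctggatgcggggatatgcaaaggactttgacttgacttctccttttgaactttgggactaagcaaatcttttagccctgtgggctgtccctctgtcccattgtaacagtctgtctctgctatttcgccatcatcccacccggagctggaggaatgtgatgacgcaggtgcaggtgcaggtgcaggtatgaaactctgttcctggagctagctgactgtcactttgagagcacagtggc

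Fev held TAATTA at bases 69 to 64 before its start and AGATAA at bases 118 to 113. Tph2 held AGATAA at bases 128 to 123. No match to these letters was found in the windows of Slc6a4, Slc22a3, Htr1a and Htr2c. The window of Htr1b, which is not printed, held CGGAAG at bases 23 to 18. None of these matches overlapped another. Of all 32851 promoter windows of this length, TAATTA is present in 4.84%, AGATAA in 9.99% and CGGAAG in 13.6%. A match describes the letters and is not evidence of binding.

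Slc6a4 (ENSMUSG00000020838, chr11:76998603-77032340 on GRCm38) encodes the serotonin transporter. Libraries of the cKO had 82.4, 127 and 200 normalized counts of Slc6a4, against 278, 245 and 392 in the control libraries. Each cKO library was below each control library. The mean of the cKO, 136 ± 59.5 (SD, n = 3), was 2.23-fold lower than the control mean, 305 ± 77.2. In limma this was a log2 fold change of -1.23 (standard error 0.28, 95% interval -1.84 to -0.63, adjusted p = 1.00). Without cKO replicate c it was -1.54, and without cKO replicate a -0.89. The exact two-sided permutation test gave p = 0.1, the smallest that 3 libraries against 3 allow.

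Slc22a3 (ENSMUSG00000023828, chr17:12418960-12507704) encodes organic cation transporter 3, which takes up serotonin and other monoamines with low affinity. This is a thinly read gene, with 19, 10 and 13 reads in the cKO libraries, against 50, 40 and 60 in the control libraries. Normalized, these are 17.8, 10.6 and 14.1, against 44.2, 38.4 and 64.8 in the control, so the groups did not overlap. Counting error alone gives the highest cKO library a 95% Poisson interval of 10.7 to 27.8 and the lowest control library one of 27.5 to 52.3. The means of 14.1 ± 3.62 and 49.2 ± 13.9 (SD, n = 3) make the level 3.47-fold lower in the cKO. Limma gave a log2 fold change of -1.73 (standard error 0.41, 95% interval -2.61 to -0.84, adjusted p = 1.00), -1.73 also without cKO replicate c, and -1.91 without cKO replicate a. The exact two-sided permutation p was 0.1. Of its 4513 exon bases, 420 overlap Plg on the opposite strand, where at most 6.48 normalized counts were found in any library. Slc6a4 and Slc22a3 are in the study's own list of most regulated genes, picked by p-value on these same libraries, so their differences are a description and not independent evidence of a direction.

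Across all genes tested, 7.70% had groups that did not overlap and 3.81% had all cKO libraries below all control libraries. Among the members these were Slc6a4 and Slc22a3, 2 of 7, both picked as just said.

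Tph2 (ENSMUSG00000006764, chr10:115078641-115185022) encodes the neuronal tryptophan hydroxylase, the rate-limiting enzyme of serotonin synthesis. The libraries held 82.4, 61.3 and 169 normalized counts of it in the cKO, against 202, 164 and 148 in the control libraries. Replicates a and b of the cKO were below every control library, while cKO replicate c lay among them, so the groups overlapped. The means were 104 ± 57.0 and 171 ± 27.6 (SD, n = 3), and the exact two-sided permutation p was 0.3. Its log2 fold change was -0.86 (limma, standard error 0.29, 95% interval -1.50 to -0.23, adjusted p = 1.00). It was -1.25 without cKO replicate c, -0.76 without cKO replicate a and -0.57 without cKO replicate b, and without the latter its unadjusted p-value was no longer under 0.05.

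Fev (ENSMUSG00000055197, chr1:74881509-74885419) had the same arrangement of libraries. It had 28.1, 42.3 and 97.4 normalized counts in the cKO libraries, against 88.5, 87.4 and 98.3 in the control libraries. The control libraries lay close together, and cKO replicate c lay within their range. The means of 55.9 ± 36.6 and 91.4 ± 5.99 (SD, n = 3) came with a wide spread in the cKO and a narrow one in the control. The exact two-sided permutation p was 0.3. The log2 fold change from limma was -0.93 (standard error 0.35, 95% interval -1.70 to -0.15, adjusted p = 1.00). Leaving out cKO replicate c gave -1.40 and leaving out cKO replicate a gave -0.50. The unadjusted p-value under 0.05 was lost without cKO replicate a, cKO replicate b or control replicate c, and in 5 of the 6 fits with a possible replicate block.

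**Figure D1:**
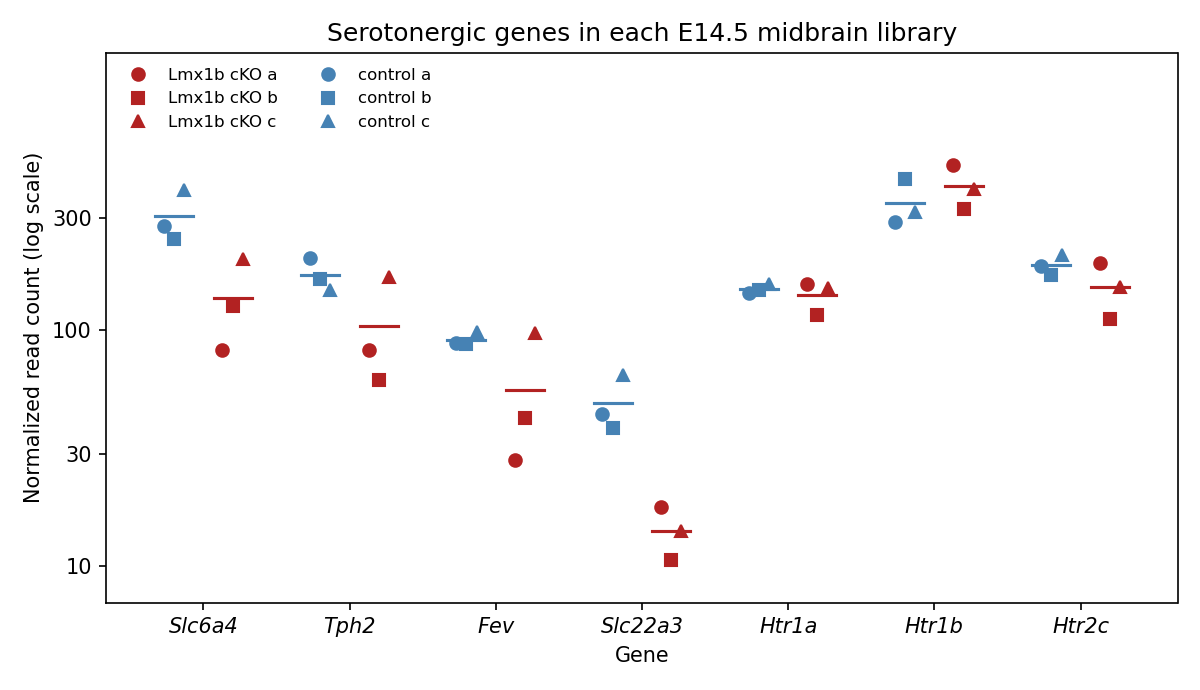
Normalized read counts of the 7 genes in the 3 control (blue) and 3 Lmx1b cKO (red) libraries, on a log axis, with a symbol per replicate and a bar at each group mean. For Slc6a4 and Slc22a3 the red points all lie below the blue ones, for Tph2 and Fev cKO replicate c reaches the control libraries, and for the receptors the groups overlap.

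Relative to the control mean, the libraries of the cKO did not stand in a single order. Slc6a4 stood at 27.0%, 41.6% and 65.7% of its control mean. For Tph2 the values were 48.1%, 35.8% and 98.6%. Fev stood at 30.8%, 46.2% and 107%, and Slc22a3 at 36.2%, 21.5% and 28.6%. In cKO replicate c, then, Tph2 and Fev were at the control level, Slc6a4 was between the groups and Slc22a3 was as low as in the other cKO libraries. Tph2, Slc6a4 and Fev, used here as markers of serotonergic neurons, were summed. The sums were 193, 230 and 466 normalized counts in the cKO libraries, against 568, 497 and 638 in the control libraries. The highest cKO sum was 82.2% of the control mean and the lowest control sum 87.5%. Slc6a4, picked by the study by p-value on these libraries, was the largest part of the control sum (mean 305 of 568). For Tph2 and for Fev taken singly the groups overlapped. In bulk tissue, fewer serotonergic neurons in the dissected piece and less RNA of these genes per neuron cannot be told apart.

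The ratio of the normalized counts of Slc6a4 to those of Fev, which is not scaled for length, was 2.93, 3.00 and 2.06 in the cKO libraries, against 3.14, 2.80 and 3.99 in the control libraries. For Slc6a4 to Tph2 it was 1.00, 2.07 and 1.19 in the cKO, against 1.38, 1.49 and 2.65 in the control. The ranges of both ratios overlapped between the groups. For Slc22a3 to Slc6a4 the ratio was 0.216, 0.0833 and 0.0703 in the cKO, around the narrow 0.157 to 0.165 of the control libraries.

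Htr1a (ENSMUSG00000021721, chr13:105443639-105448122), an inhibitory receptor and the somatodendritic autoreceptor of serotonergic neurons, had 156, 116 and 150 normalized counts in the cKO libraries, against 144, 149 and 158 in the control libraries. Replicates a and c of the cKO lay within the control range. The log2 fold change of -0.09 (standard error 0.18, adjusted p = 1.00 in limma) has a 95% interval of -0.48 to 0.29, so a change of the size seen for Slc6a4 lies outside it. Its exact two-sided permutation p was 0.8, and its log2 fold change was -0.14 without cKO replicate c.

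Htr1b (ENSMUSG00000049511, chr9:81628291-81633828) encodes the inhibitory receptor on axon terminals. Its normalized counts of 500, 328 and 396 in the cKO libraries stood beside 287, 437 and 319 in the control libraries. It is the only member with a positive log2 fold change, 0.25 with a standard error of 0.18 (95% interval -0.15 to 0.65, adjusted p = 1.00 in limma), and the groups overlapped (exact two-sided permutation p = 0.5). Without control replicate b its unadjusted p-value was under 0.05, at a log2 fold change of 0.43, and without cKO replicate c the log2 fold change was 0.26. It was smaller without cKO replicate a (0.08) and without control replicate a (0.11). Of its 4724 exon bases, 852 overlap D430036J16Rik on the opposite strand, which had 88.8 to 104 normalized counts.

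Htr2c (ENSMUSG00000041380, chrX:146962513-147197277), an excitatory receptor, had 193, 112 and 153 normalized counts in the cKO libraries, against 187, 172 and 210 in the control libraries. Replicate a of the cKO lay within the control range and cKO replicates b and c lay below it. Limma gave it a log2 fold change of -0.32 (standard error 0.20, 95% interval -0.76 to 0.12, adjusted p = 1.00), and the exact two-sided permutation p was 0.3. Without cKO replicate a the log2 fold change was -0.52, with an unadjusted p-value under 0.05. It was -0.12 without cKO replicate b and -0.33 without cKO replicate c. Over a list of 7 choroid plexus genes, the sum of normalized counts was 341, 236 and 299 in the cKO, against 285 to 309 in the control libraries, so the cKO libraries had the same order as for Htr2c. Most of this sum came from Prlr (204, 81.4 and 126 in the cKO libraries, against 113 to 154), Folr1 (76.8 to 110 over all libraries) and Kl (38.0 to 72.4), which are also made by other cells. Ttr, the defining gene of this tissue, was at 0 in 5 libraries and at 6.34 normalized counts in cKO replicate b. The part of the choroid plexus in the level of Htr2c was not tested.

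**Figure D2:**
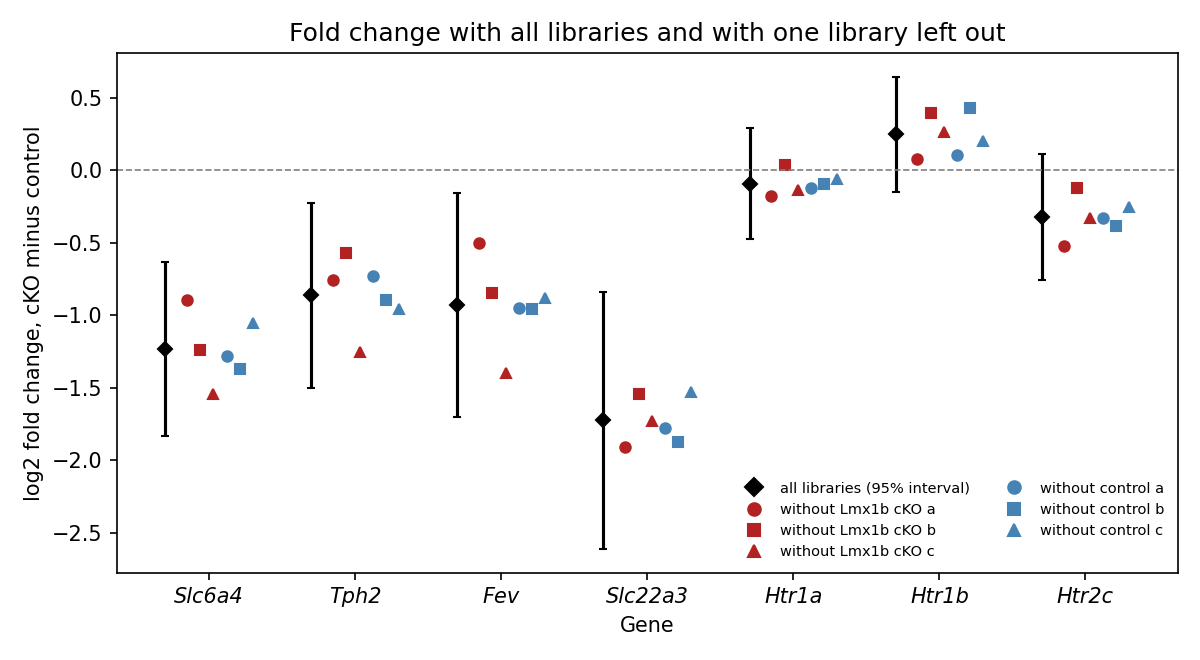
Log2 fold change (cKO minus control, limma) of each gene with all libraries (black, bars are 95% intervals) and with 1 of the 6 libraries left out (coloured symbols). Slc6a4, Tph2, Fev and Slc22a3 stay below 0 in every fit, with the widest spread for Fev (-1.40 to -0.50), and Htr1a moves to 0.04 without cKO replicate b.

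Per kb of exon, the level of the members in the control libraries ran from Htr1b at the top to Slc22a3 at the bottom. Mean normalized counts per kb were 73.6 ± 16.8 for Htr1b, 67.3 ± 17.0 for Slc6a4, 59.5 ± 9.57 for Tph2 and 56.5 ± 3.71 for Fev (SD, n = 3). The ranges of neighbours in this order overlapped among these 4 genes. Htr1a (33.5 ± 1.53), Htr2c (20.3 ± 2.03) and Slc22a3 (10.9 ± 3.07) followed, each apart from the gene above it. In the cKO libraries Htr1b (86.4 ± 18.4 per kb) stood apart at the top and Slc22a3 (3.13 ± 0.802) at the bottom. Between them lay Tph2 (36.2 ± 19.8), Fev (34.6 ± 22.6), Htr1a (31.5 ± 4.84), Slc6a4 (30.1 ± 13.1) and Htr2c (16.4 ± 4.34), where the ranges of neighbours in this order overlapped, although Htr2c (up to 20.7) lay wholly below Tph2 (from 21.3) and Htr1a (from 25.9). Slc6a4 was thus in place 2 of 7 in the control libraries and in place 5 in the cKO libraries.

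Among 13 genes for synthesis, packaging, uptake and breakdown, 12 were tested. The 4 with an unadjusted p-value under 0.05, all lower, were the members Tph2, Slc6a4 and Slc22a3 together with Ddc, against 1.62% of all genes tested. Slc6a4 and Slc22a3 were picked by the study by p-value on these libraries, so this count is only a description. Ddc, the decarboxylase that serotonergic and dopaminergic neurons share, had 1552 to 1608 normalized counts in cKO libraries, against 1699 to 2274 in control libraries (log2 fold change -0.24, standard error 0.10, adjusted p = 1.00 in limma). Its unadjusted p-value rose above 0.05 when any cKO library or control replicate c was left out, with a log2 fold change of -0.11 without the latter. Slc29a4, a monoamine transporter of the plasma membrane and the most abundant gene of the list, had 3167 to 3381 and 3093 to 3569 normalized counts. The median log2 fold change of the tested genes on this list was -0.04. Tph1, the hydroxylase of peripheral tissues, averaged under 10 normalized counts and was not tested.

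Among 10 transcription factors of the serotonergic lineage, 9 were tested, and Fev was the only one with an unadjusted p-value under 0.05. The median log2 fold change was 0.00. Gata3, which acts before Fev in these neurons and is also made by midbrain GABAergic neurons, had 2546 to 2712 normalized counts in the cKO, against 2315 to 2929 in the control. Pou3f2, a factor of many neuron types, had 3888 to 4324 and 3634 to 4363. The 2 libraries with the lowest Fev, cKO replicates a and b, had 653 and 589 normalized counts of Gata2, within the 530 to 713 of the control libraries. Counts per library of Sox4 could not be recovered, and the authors' means were 30221 in the cKO, against 29482 in the control.

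Of 14 serotonin receptor genes, 13 are in the table and 10 were tested. The median log2 fold change was -0.10, and none was lower with an unadjusted p-value under 0.05. Htr3a, the subunit of the ion channel receptor, was higher with one, at 34.7, 42.3 and 30.3 normalized counts in the cKO libraries, against 31.0, 14.4 and 9.72 in the control libraries. The log2 fold change of 1.05 had a standard error of 0.44 (adjusted p = 1.00 in limma), and control replicate a lay within the cKO range. Leaving out cKO replicate a or b or control replicate b or c took its unadjusted p-value above 0.05, as did 4 of the 6 possible replicate blocks. Htr5a, after Htr1b the most abundant receptor by normalized count, had 281 to 314 in the cKO, against 243 to 351 in the control. Htr3b had at most 3 reads in every library.

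Slc22a3 lies beside Igf2r, Airn and Plg in a cluster that is imprinted in some tissues. On a list of organic cation transporters and this cluster 3 genes were tested, with Slc22a3 as the only one with an unadjusted p-value under 0.05 and a median log2 fold change of -0.14. Igf2r had 3230 to 3395 normalized counts in the cKO, against 3196 to 3243 in the control. Airn, the noncoding RNA of the cluster, had 25.3, 33.8 and 53.0 in the cKO libraries, against 54.9, 31.7 and 32.4. Mas1 had at most 3 reads in every library.

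**Figure D3:**
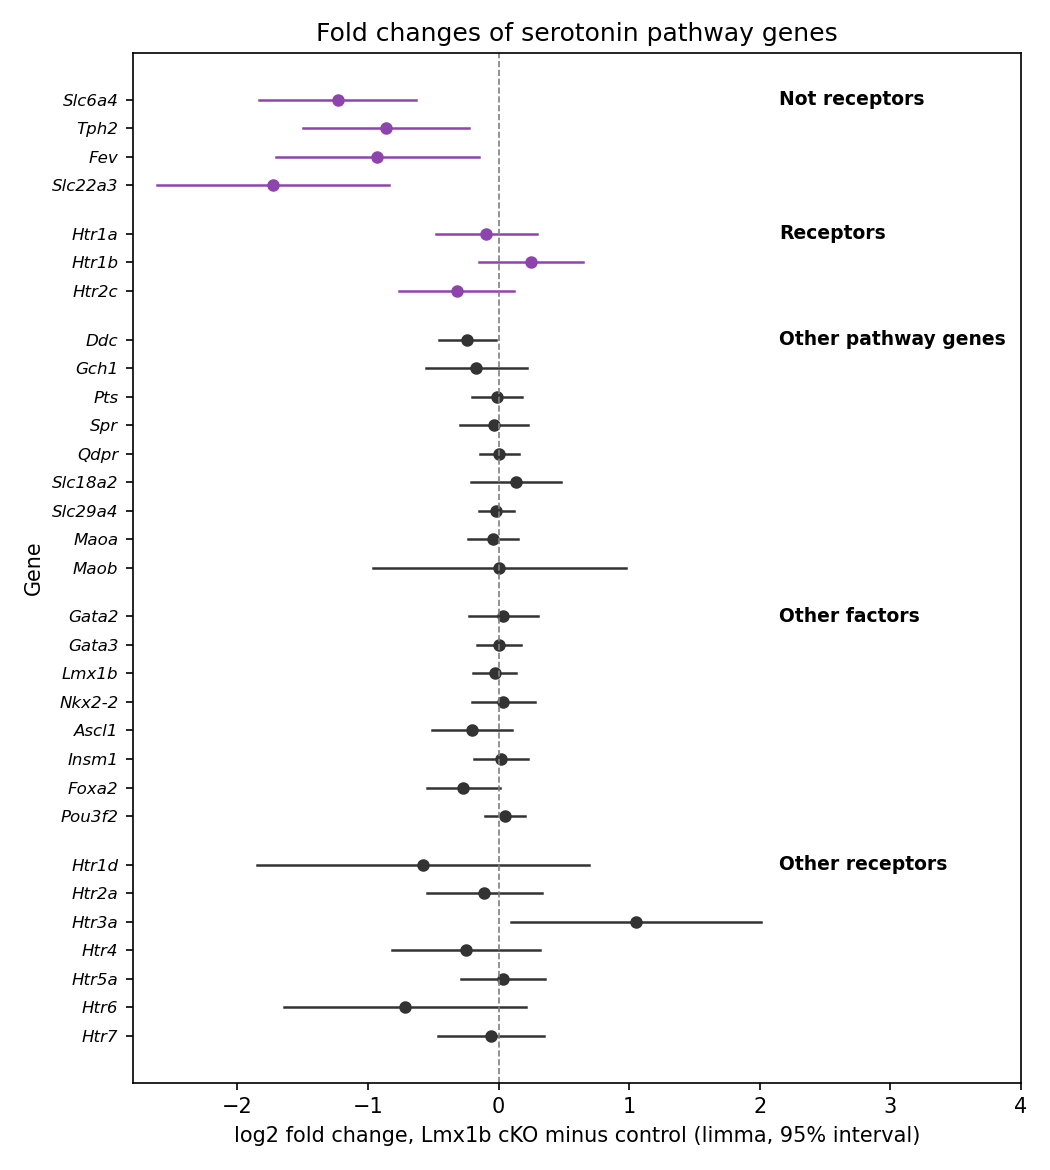
Log2 fold changes (cKO minus control, limma) with 95% intervals for the 7 members (purple) and the other tested genes of the serotonin lists (grey), by role. Slc6a4, Tph2, Fev and Slc22a3 lie at -0.86 or below, Ddc and Htr3a are the other genes whose interval leaves out 0, and most others lie near 0.

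The isthmus and anterior hindbrain are the region where the rostral serotonergic neurons arise. En1, En2, Pax5 and Pax8 mark it together with the adjoining midbrain. En1 and En2 are also made by mdDA neurons, the cells in which Lmx1b was deleted. Of 13 genes on the list for the isthmus and anterior hindbrain, 12 are in the table and 6 were tested. En1, En2 and Pax5 had an unadjusted p-value under 0.05, all lower, and the median log2 fold change was -0.43. En1 and En2 were also picked by the study by p-value on these libraries, so their values are a description and not independent evidence of a direction. Pax5 lost this without cKO replicate a (log2 fold change -0.16) or control replicate c (-0.22), while En1 and En2 had it with each library left out in turn. En2 had an adjusted p of 0.0306 and 0.0337 in limma with 2 of the 6 possible replicate blocks. En1 stood at 68.1%, 76.6% and 83.1% of its control mean in the cKO libraries. En2 stood at 61.9%, 75.1% and 82.7%, Pax5 at 63.8%, 84.8% and 92.3%, and Pax8 at 44.7%, 82.7% and 100.3%. In these 4 genes, as in Slc6a4 and Fev, cKO replicate a was the lowest cKO library and cKO replicate c the highest. The share of all genes tested with this order was not computed, so the likeness is only a description. Pax2, Gbx2 and Fgf8 of the same list did not share this order, with Pax2 at 72.9%, 61.1% and 49.3%, Gbx2 at 139%, 185% and 98.7% and Fgf8, which averaged under 10 normalized counts, at 253%, 133% and 38.9%. Over the 12 genes the summed normalized counts were 6551 to 8663 in the cKO, against 9149 to 10817 in the control. This sum includes En1 and En2, which were picked as just said, and a sum without them was not computed. Gbx2 is also made by the thalamus. The Hox genes of the hindbrain behind this border were near 0, with Hoxb2 and Hoxb3 at 3 or fewer reads in every library and Hoxa2 and Hoxa3 at up to 5.31 and 4.68 normalized counts. The part of these genes in the lower levels of the members was not tested.

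**Figure D4:**
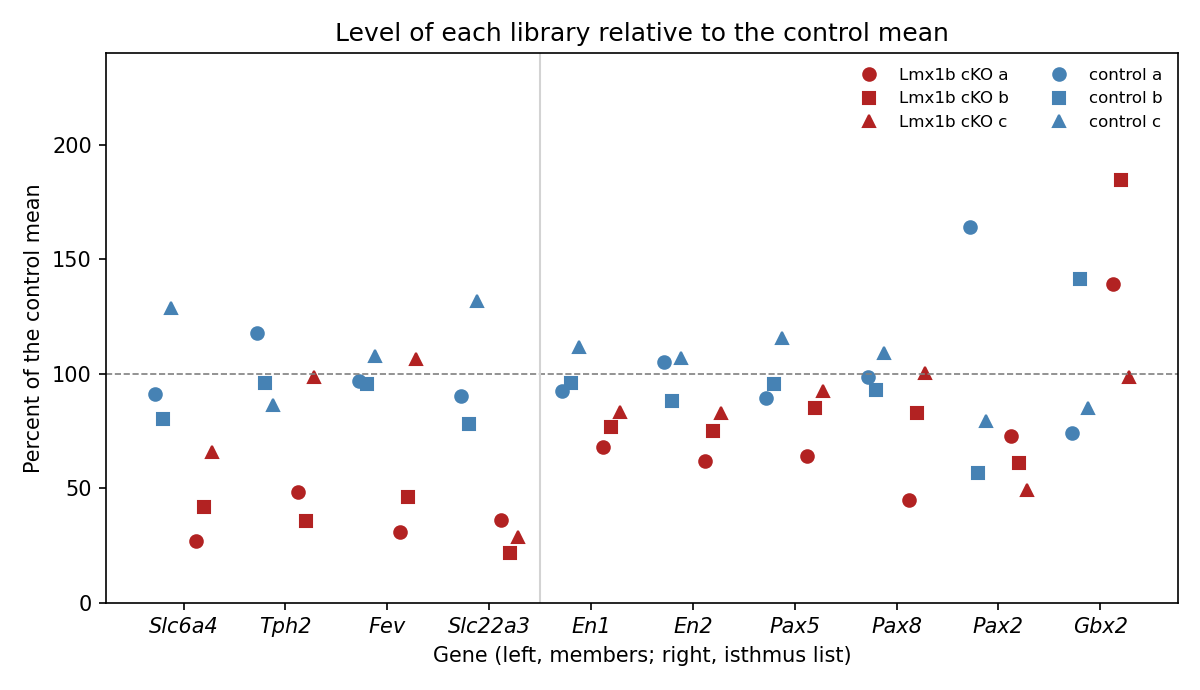
Level of each library as a percentage of the control mean, for the 4 members that are not receptors (left) and the 6 tested genes of the isthmus list (right), with control in blue and cKO in red. Within the cKO, replicate a is lowest and replicate c highest for Slc6a4, Fev, En1, En2, Pax5 and Pax8, but not for Tph2, Slc22a3, Pax2 and Gbx2. The share of all genes tested with this order was not computed.

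Noradrenergic neurons of the locus coeruleus arise next to the serotonergic ones, and Slc6a2, their noradrenaline transporter, varied between libraries of both groups. It had 66.5, 169 and 5.41 normalized counts in the cKO libraries, against 187, 24.0 and 15.1 in the control libraries. The cKO library with the highest Tph2 and Fev, replicate c, was the lowest of the 6 for this gene. Its part in the results of the members was not tested.

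Dopaminergic neurons, the cells in which Lmx1b was deleted, marked the tissue in all libraries, with Nr4a2 at 3047 to 3098 normalized counts in the cKO, against 3126 to 3484 in the control, and Foxa1 at 1228 to 1429 and 1253 to 1553. Of 6 genes, Pitx3 alone had an unadjusted p-value under 0.05 (111, 162 and 150 normalized counts in the cKO, against 177, 180 and 198 in control libraries). The log2 fold change was below 0 for 6 of 6 genes, with a median of -0.12. Pitx3 lost its unadjusted p-value under 0.05 without cKO replicate a (log2 fold change -0.24) or any control library, and in 4 of the 6 possible replicate blocks. Among the lists for other tissue that a dissection may hold, none of the genes tested for the thalamus (4), choroid plexus (3), vascular and meningeal cells (6), skeletal muscle (3) or microglia and mast cells (5) had an unadjusted p-value under 0.05. Col3a1, 1 of the 6 bone and mesenchyme genes, and Hbb-bs and Hba-a1, 2 of the 6 blood genes, were higher in the cKO with one. Each of these 3 lost it with some libraries left out, Col3a1 with any control library (log2 fold change 1.75 to 1.90, against 1.84 with all libraries, 1.03 without cKO replicate c and 2.58 without cKO replicate b), Hbb-bs with cKO replicate c (0.20) or control replicate a (0.15) or b (0.31), and Hba-a1 with cKO replicate b (0.24) or c (0.16) or control replicate a (0.14). The median log2 fold change was 2.29 for bone and mesenchyme, with 6 of 6 genes above 0, 0.28 for blood and 0.17 for the thalamus, and between -0.07 and 0.06 for the other lists of this kind. Summed over the blood list, the normalized counts were 10713 to 13173 in the cKO, against 8450 to 12560 in the control.

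The genes whose profiles over the 6 libraries were most like that of Slc6a4 were compared by the root mean square difference of log2(normalized count + 1) values, each centred on the mean of its gene. The 5 closest of the other genes tested were Gm42531, Clrn2, Trim21, Gm2155 and 2310047D07Rik, with differences of 0.222 to 0.259. Fev followed in place 6 with 0.280, while Tph2 was in place 117 and Slc22a3 in place 327. For Tph2 the 5 closest were Gm43690, 1700123M08Rik, Slc16a10, Vgll3 and 5930422O12Rik, with differences of 0.0744 to 0.202. Fev was in place 63 for Tph2, Slc6a4 in place 446 and Slc22a3 in place 12841, with a difference of 0.681. All these values share the same 6 libraries, and several of these genes are thinly read, with at most 14.2 normalized counts for Gm43690.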

How the data were processed

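Dissected midbrains of E14.5 embryos gave total RNA for 3 sequencing libraries per genotype. The submitters' processing notes name TopHat 1.0.14, Bowtie2 2.1.0, HTSeq 0.6.1p1, DESeq 1.10.1 and GRCm38.p4. Whether counting used the strand is not given in the sources used here. The signal columns that the authors deposited are group means of read counts divided by size factors. Columns with their ratio, log2 ratio, p-values, ranks and overall mean were not used. The table ends with 3 lines that name no gene (31.8% of the mean counts), which were left out.

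Size factors and whole counts per library were recovered from the steps of the means, for up to 30000 reads per gene and group. All 47402 simulated means were recovered, and 2 decoys had an answer, of 1000 per group. The recovered genes hold 66.4% of the normalized counts, since abundant genes exceed the search. The size factors differed by at most 0.152% from those recomputed from the counts. The written design allowed this test only if counts could be recovered.

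Genes averaging 10 or more were fitted by genotype with voom weights (limma 3.58.1, R 4.3.3) and p-values adjusted by the Benjamini-Hochberg method. The fit was tested on simulated data. Single genes were compared by exact permutation tests. Poisson intervals cover counting error only. Positions and exon lengths are from GENCODE on GRCm38 and promoters from RefSeq on GRCm38.p6 (7 of 7 members matched). Scripts used Python 3.11.15 with pandas 2.3.3, numpy 2.4.6, numba 0.67.0, matplotlib 3.10.9 and scipy 1.17.1.

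The members and the 14 lists were chosen with earlier results of these data known. Some list genes, and the list sum for noradrenergic neurons, are not reported here. Named are the 7 members, list genes with an unadjusted p-value under 0.05, the 2 most abundant genes of a list where they help, receptors at 3 or fewer reads and the 5 closest profiles. Lmx1b, Tph1, Gata2, Pax8, Pax2, Fgf8, Gbx2, the Hox genes, Ttr, Prlr, Folr1, Kl, Sox4, Mas1, Plg and D430036J16Rik were named after their values were seen. Alternatives were no minimum mean, a minimum of 100, limma-trend with pseudocounts of 1 and 10, scaling to total reads, recomputed size factors, the ratio of the deposited means, centring and leaving out each library. A replicate block for each possible pairing was added after seeing the data.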

Additional observations from a re-analysis of the deposited data

How the results depend on the processing

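With a minimum mean of 100, 302 genes had an unadjusted p-value under 0.05, and without a minimum 968, against 466. Of the members, 2 had one at a minimum of 100, since Fev and Slc22a3 were then not tested. Leaving out each library in turn gave 332 to 636 genes and 2 to 5 members, with 2 members (Slc6a4 and Slc22a3) without cKO replicate b. The log2 fold changes then ranged from -1.54 to -0.89 for Slc6a4, -1.25 to -0.57 for Tph2, -1.40 to -0.50 for Fev, -1.91 to -1.53 for Slc22a3, -0.52 to -0.12 for Htr2c, 0.08 to 0.43 for Htr1b and -0.18 to 0.0369 for Htr1a, which turned its direction without cKO replicate b. The cause was not tested. Under the other planned settings every member kept its direction, and the log2 fold change of Slc22a3 moved most, to -1.28 with a pseudocount of 10.

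The header numbers libraries alike in both genotypes, but the recovered libraries carry no number, so the true pairing is not known. With a replicate block for each of the 6 possible pairings, chosen after seeing the data, 343 to 682 genes and 3 or 4 members had an unadjusted p-value under 0.05, and Fev had one in 1 of 6. Htr3a and Pitx3 had one in 2 of 6. The block gave 0 to 4 genes of all tested an adjusted p-value under 0.05, and leaving out each library 0 to 4 (4 without control replicate a). A block gave no member an adjusted p-value under 0.05 in limma, with 0.0572 as the lowest, for Slc6a4. Depth limits Slc22a3, with 10 to 60 reads per library, and 3 libraries against 3 limit every exact test.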
